A study of Mus musculus with 35 samples.

Results

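Voltage-gated sodium and calcium channel genes were read across the striatal RNAseq libraries of 35 mice. Of the 22099 genes listed, 40 carried a name that starts with *Scn* and a digit or with *Cacna1*, *Cacna2d*, *Cacnb* or *Cacng*, and 35 of these reached a mean of at least 0.3 CPM (a gene's count scaled to a common library total) and are the members described here. The member nearest to that limit was *Cacna1s*, at 0.67 CPM, and the nearest genes outside it were *Scn10a* and *Scn11a*, both at 0.21 CPM; *Cacna1f*, *Cacng6* and *Scn4a* lay further below. All 35 members passed the filter on low counts and were tested.

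The mice were female C57BL6/J animals aged 299 to 304 days, with 1 library per mouse. *Htt* Q111/+ mice are heterozygous for a knock-in allele that carries an expanded CAG repeat in the mouse huntingtin gene, a model of Huntington's disease, and their *Htt* +/+ littermates carry none. Saline was given to 6 *Htt* +/+ and 6 *Htt* Q111/+ mice, control ASO to 5 and 6, and *Htt* ASO to 6 and 6. An ASO is an antisense oligonucleotide; the *Htt* ASO targets both huntingtin alleles, the control ASO matches no mouse sequence. Both were injected into the peritoneum every week at 50 mg/kg (saline at 4 µL/g), starting at month 2 and ending at month 10. RNA came from 1 perfused hemistriatum per mouse, the right in all but 1 mouse (*Htt* +/+ on *Htt* ASO). The whole tissue was sequenced, so fewer cells of a type and less RNA per cell cannot be told apart.

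Voltage-gated sodium channels open on depolarization and carry the upstroke of the action potential, and voltage-gated calcium channels turn that electrical signal into calcium entry, which drives transmitter release and calcium-dependent transcription. Each channel has 1 large pore-forming subunit, which sets the type of current, and smaller auxiliary subunits (beta for sodium channels; alpha2delta and beta for calcium channels), which set how many channels reach the membrane and how they gate. Genes named *Cacng* were called calcium channel gamma subunits by sequence, but most of their products in brain are transmembrane AMPA receptor regulatory proteins (TARPs), which carry glutamate receptors to the synapse. Medium spiny neurons, the projection neurons that make up most of the striatum, are rich in the sodium channel subunit encoded by *Scn4b*.

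Total counts per mouse ranged from 32200158 to 38641924 (median 35538941). *Htt*, listed under its older symbol *Hdh*, ranged from 60.9 to 104 CPM over all mice, and on *Htt* ASO its log2 level differed from that on control ASO by −0.08 (adjusted p = 0.967). Markers of the labelled tissue were high: the summed level of 9 medium spiny neuron genes was 7496 to 8777 CPM in *Htt* +/+ mice and 5020 to 6007 CPM in *Htt* Q111/+ mice, with 8 of the 9 called lower and 1 (*Tac1*) higher in *Htt* Q111/+ mice. The sample titles carry the letter L and a number, which was read as a sequencing lane, though the sources do not state what it stands for. By that reading, 5 of the 6 lanes held both genotypes. The other, lane 7, held only *Htt* Q111/+ mice (n = 6), in which lane and genotype cannot be told apart.

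The genotypes differed in most of the channel genes. Averaged over the 3 treatments, 22 of the 35 members (62.9%) differed between the genotypes at the 0.05 level (adjusted p, limma after voom, Benjamini-Hochberg over all 17639 genes tested), where 39.8% of all genes tested did. Lower levels in *Htt* Q111/+ mice made up 16 of them (45.7% of the members, against 18.0% of all genes tested) and higher levels 6 (17.1%, against 21.8%). With library totals in place of TMM scaling, a choice that moved the median of all genes from 0.00 to 0.04 on the log2 scale, 17 members were called (48.6%), 10 lower and 7 higher, beside 45.9% of all genes tested (12.8% lower and 33.1% higher). With lane as a covariate 17 members were called, 13 lower and 4 higher, beside 35.1% of all genes tested. The median log2 difference of the members was −0.06, beside 0.0037 for all genes tested. The levels of the 17 *Htt* +/+ and the 18 *Htt* Q111/+ mice did not overlap at all for 5 members. *Scn4b*, *Cacna1e* and *Cacna2d3* were lower in every *Htt* Q111/+ mouse than in any *Htt* +/+ mouse (1.28% of all genes tested were), and *Scn9a* and *Scn3b* were higher (0.930% of all genes tested were).

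**Figure D1:**
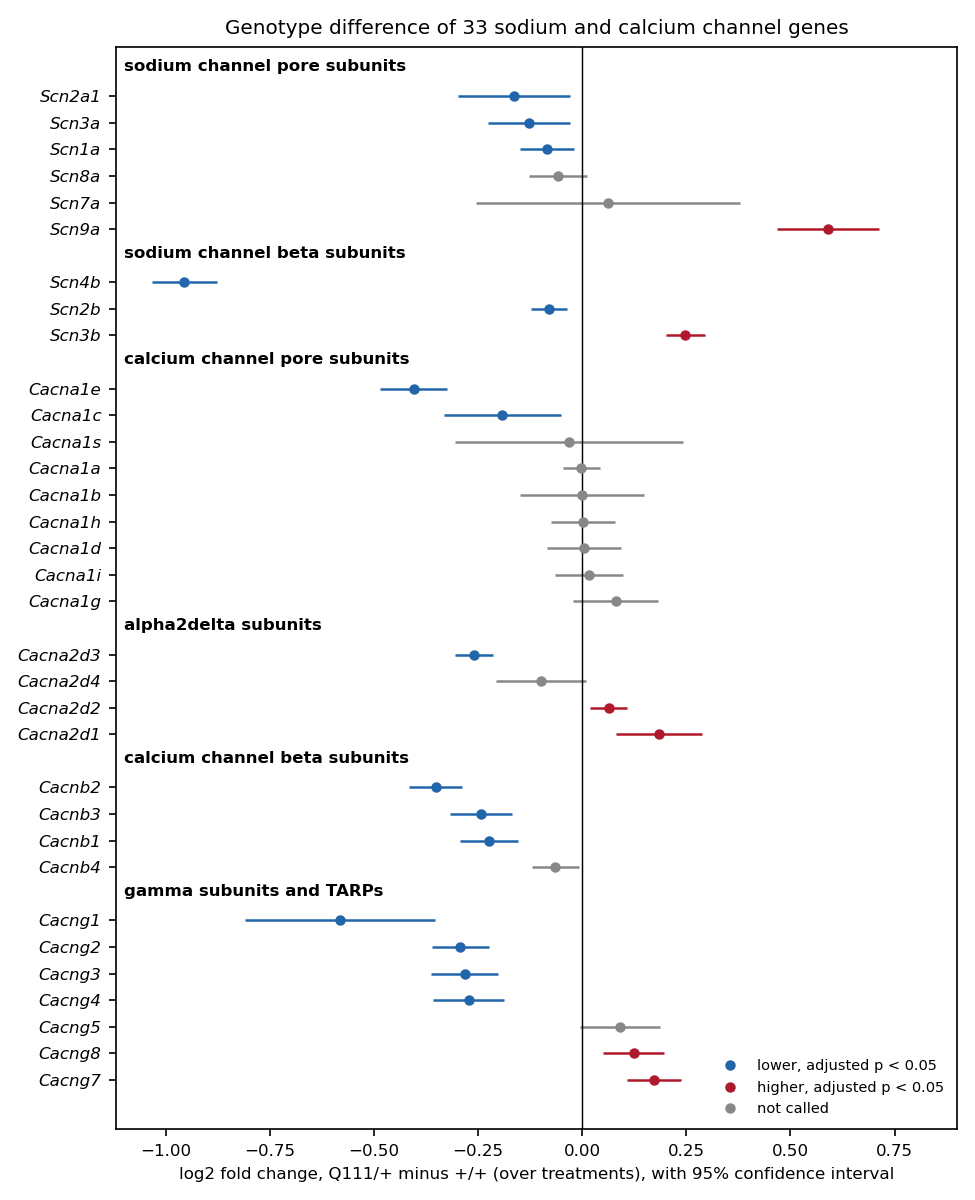
Log2 difference between 18 *Htt* Q111/+ and 17 *Htt* +/+ mice over treatments for 33 of the 35 channel genes, ordered by the kind of subunit; points are estimates, lines are 95% confidence intervals, and colour marks the call at an adjusted p of 0.05. *Scn4b* stands at −0.96 and *Scn9a* at 0.59, and 7 of the 9 calcium channel pore genes sit near 0.

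Among the pore subunits of sodium channels, *Scn1a*, *Scn2a1* and *Scn3a* were called lower and *Scn9a* higher, while *Scn8a* and *Scn7a* were not called. *Scn8a*, which encodes the channel concentrated at the axon initial segment and at nodes of Ranvier, ran from 269 to 333 CPM (median 307) in *Htt* +/+ mice and from 254 to 343 CPM (median 291) in *Htt* Q111/+ mice. These ranges overlapped nearly in full, and the log2 difference was −0.06 (95% confidence interval −0.13 to 0.011, adjusted p = 0.180). With GC slope and lane as covariates, a fit added after seeing the data, it was called lower (log2 difference −0.15, adjusted p = 1.06e-05).

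*Scn2a1* (current symbol *Scn2a*), the pore subunit of early axons and projection neurons, ran from 123 to 200 CPM (median 173) in *Htt* +/+ and from 117 to 202 CPM (median 154) in *Htt* Q111/+ mice. Its log2 fold change of −0.16 (95% confidence interval −0.30 to −0.030) had an adjusted p of 0.0464, and it lost its call without any 1 of 19 of the 35 mice (adjusted p 0.0559 to 0.0802). *Scn1a*, the subunit best known from fast-spiking interneurons, averaged 147 ± 9.20 CPM (SD, n = 17) and 139 ± 10.3 CPM (SD, n = 18), a log2 fold change of −0.09 (adjusted p = 0.0309). *Scn3a*, most abundant in embryonic brain, averaged 93.8 ± 9.96 CPM (SD, n = 17) and 85.9 ± 8.18 CPM (SD, n = 18), a log2 fold change of −0.13 (adjusted p = 0.0324). All 3 of these decreases were smaller than the spread within either genotype, and none was called within a single treatment. With lane as a covariate, their adjusted p-values were 0.112 for *Scn2a1*, 0.148 for *Scn1a* and 0.0942 for *Scn3a*.

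*Scn9a*, the pore subunit called higher, is best known as the sodium channel of pain-sensing neurons. It was a scarce transcript here, with 141 to 421 counts per mouse. *Htt* +/+ mice ran from 4.19 to 7.98 CPM (median 6.86) and *Htt* Q111/+ mice from 8.21 to 11.3 CPM (median 9.95). By treatment (saline, control ASO and *Htt* ASO in that order) the group medians were 6.48, 7.27 and 6.28 CPM in *Htt* +/+ mice and 10.4, 10.5 and 9.42 CPM in *Htt* Q111/+ mice. The lowest *Htt* Q111/+ mouse lay just above the highest *Htt* +/+ mouse, and the mean was 150% of that in *Htt* +/+ mice (95% confidence interval 138 to 164, log2 fold change 0.59, standard error 0.060, adjusted p = 8.73e-10). The increase was called under saline (log2 fold change 0.69), control ASO (0.47) and *Htt* ASO (0.61), and within the 5 lanes that held both genotypes it ran from 0.16 to 0.79. *Scn7a*, an atypical sodium-sensing member, was at 2.84 ± 0.89 CPM (SD, n = 17) and 2.93 ± 0.76 CPM (SD, n = 18) and was not called.

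*Scn9a* lies in a cluster of 5 sodium channel genes on chromosome 2, whose other members are *Scn3a*, *Scn2a1*, *Scn1a* and *Scn7a* (chr2:65457118-66784914, GRCm38). Its neighbours on either side were *Scn1a*, called lower, and *Scn7a*, not called, so the direction was not shared along the cluster.

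Among the beta subunits of sodium channels, *Scn4b* and *Scn2b* were called lower and *Scn3b* higher. *Scn4b*, whose product is the beta subunit tied to the resurgent sodium current of fast-firing neurons, was the most changed of all 35 members. In *Htt* +/+ mice it ran from 1558 to 1987 CPM on saline (median 1765) and from 1795 to 1910 CPM on *Htt* ASO (median 1886), and the 5 mice on control ASO had 1593, 1602, 1712, 1717 and 1925 CPM. In *Htt* Q111/+ mice it ran from 771 to 1000 CPM on saline (median 882), from 787 to 1024 CPM on control ASO (median 945) and from 796 to 1051 CPM on *Htt* ASO (median 950). A wide gap separated the genotypes, since the highest *Htt* Q111/+ mouse lay at 1051 CPM and the lowest *Htt* +/+ mouse at 1558 CPM. The mean fell from 1790 ± 132 CPM (SD, n = 17) to 922 ± 82.2 CPM (SD, n = 18), which is 51.6% of the *Htt* +/+ level (95% confidence interval 48.8 to 54.4, log2 fold change −0.96, standard error 0.039, adjusted p = 1.17e-19). The decrease was called under each treatment (log2 fold change −1.005, −0.87 and −0.99, in the order saline, control ASO, *Htt* ASO) and ran from −0.97 to −0.90 within lanes.

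*Scn3b*, a beta subunit that binds the pore without a covalent bond, went the other way. *Htt* +/+ mice ran from 165 to 195 CPM (median 182) and *Htt* Q111/+ mice from 195 to 229 CPM (median 217). By treatment (saline, control ASO and *Htt* ASO in that order) the group medians were 179, 184 and 187 CPM in *Htt* +/+ mice and 215, 225 and 213 CPM in *Htt* Q111/+ mice. The ranges met without overlapping, and the mean rose from 182 ± 8.80 CPM (SD, n = 17) to 216 ± 10.6 CPM (SD, n = 18), a log2 fold change of 0.25 ± 0.023 (SE; adjusted p = 1.16e-10) that was called under all 3 treatments.

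*Scn2b*, whose product shares with that of *Scn4b* a disulfide bond to the pore, fell from 402 ± 15.6 CPM (SD, n = 17) to 380 ± 16.8 CPM (SD, n = 18), a log2 fold change of −0.08 (adjusted p = 0.00283). Its adjusted p was 0.0817 with library totals and 0.0809 with GC slope and lane as covariates. *Scn2b* (chr9:45117782-45130070, GRCm38) and *Scn4b* (chr9:45138395-45154152) are neighbours on the same strand, yet their decreases differed in size by a wide margin, as the 95% confidence intervals of −0.12 to −0.037 and −1.03 to −0.88 show.

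**Figure D2:**
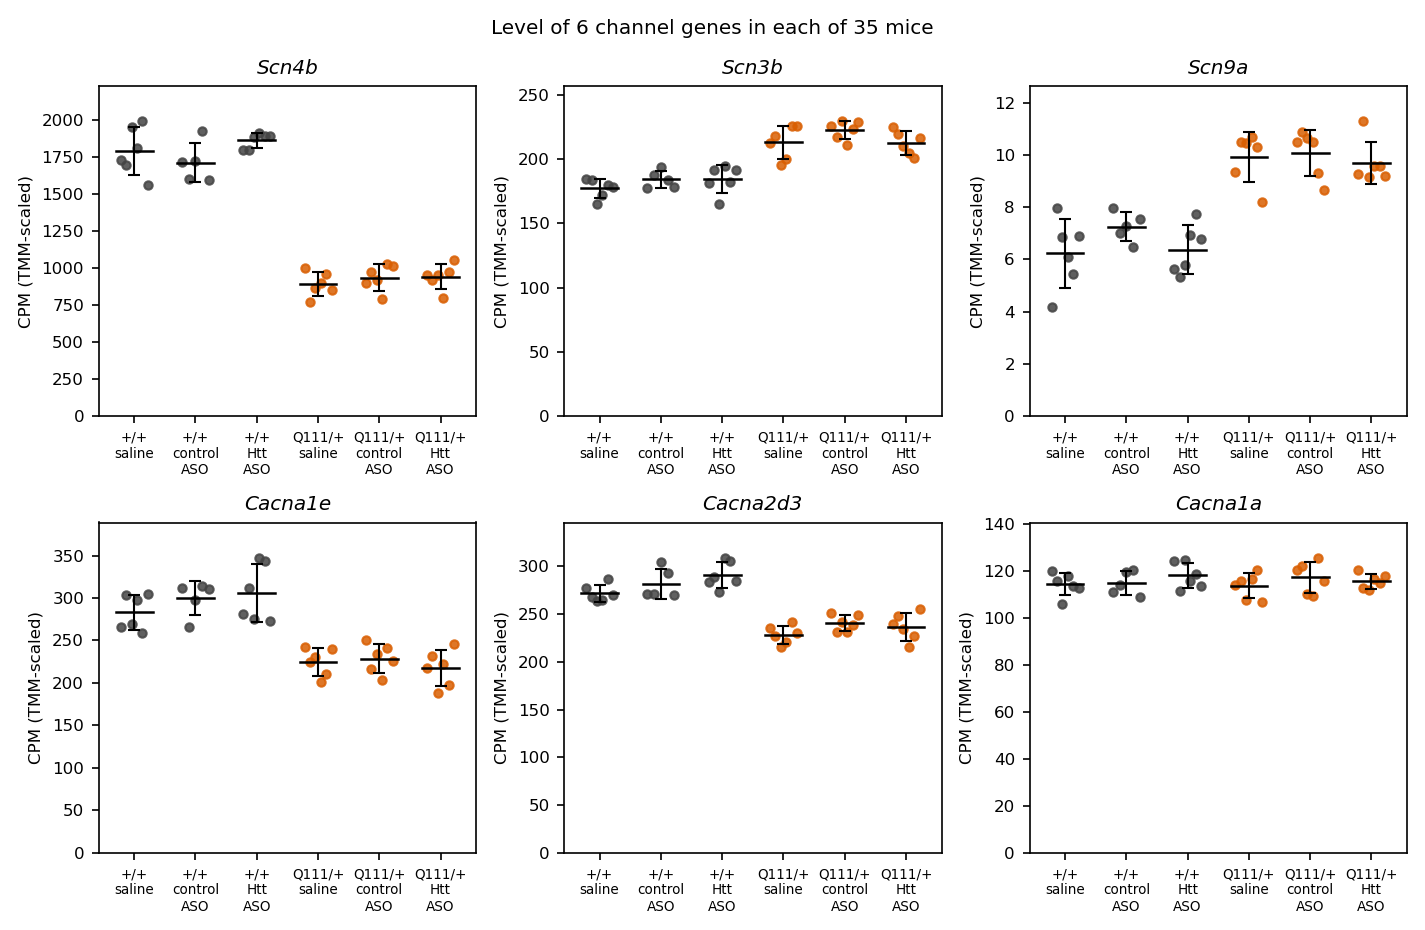
Level of 6 channel genes in each mouse, as CPM on TMM-scaled library sizes (vertical axis from 0), by genotype and treatment; points are mice, horizontal bars group means and error bars SD (n = 5 or 6). The *Htt* Q111/+ groups of *Scn4b*, *Cacna1e* and *Cacna2d3* lie below and those of *Scn3b* and *Scn9a* above every *Htt* +/+ mouse, while *Cacna1a* stays between 106 and 125 CPM in all 6 groups.

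The pore subunits of calcium channels had the lowest share of calls among the 6 kinds of subunit. None of the 9 was called higher, 2 were called lower and 7 were not called, with a median log2 difference of −0.00076, beside 0.0037 for all genes tested. *Cacna1e*, which encodes the R-type channel, was the exception in size. *Htt* +/+ mice ran from 259 to 347 CPM (median 298) and *Htt* Q111/+ mice from 188 to 251 CPM (median 225). By treatment (saline, control ASO and *Htt* ASO in that order) the group medians were 284, 311 and 296 CPM in *Htt* +/+ mice and 227, 230 and 220 CPM in *Htt* Q111/+ mice. There was no overlap, and the mean was 75.5% of the *Htt* +/+ level (95% confidence interval 71.4 to 79.9, log2 fold change −0.40, standard error 0.040, adjusted p = 3.87e-10). It was called under each treatment, with log2 fold changes of −0.33, −0.39 and −0.49 in the same order.

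*Cacna1c*, the L-type subunit of heart and brain, averaged 41.6 ± 6.69 CPM (SD, n = 17) and 36.2 ± 4.48 CPM (SD, n = 18), with wide overlap (log2 fold change −0.19, adjusted p = 0.0250). Its adjusted p was 0.0726 with library totals and 0.104 with the 6 mice of the single-genotype lane left out. *Cacna1d*, the L-type subunit that opens at more negative voltages, averaged 46.5 ± 4.35 CPM (SD, n = 17) and 46.6 ± 3.96 CPM (SD, n = 18), a log2 difference of 0.0038 (95% confidence interval −0.084 to 0.092). Per kb of exon (CPM divided by the length of the gene's merged exons, a scale on which genes can be compared), the level of *Cacna1c*, 1.96 ± 0.32 (SD, n = 17), was below that of *Cacna1d*, 3.68 ± 0.34 (SD, n = 17), in *Htt* +/+ mice.

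The channels of presynaptic terminals were not called. *Cacna1a*, the P/Q-type subunit that drives transmitter release, ran from 106 to 124 CPM (median 116) in *Htt* +/+ and from 107 to 125 CPM (median 116) in *Htt* Q111/+ mice. The interval around its log2 difference of −0.0027 reached from −0.047 to 0.042 (adjusted p = 0.937), the narrowest among the calcium channel pore genes. *Cacna1b*, the N-type subunit, gave a log2 difference of −0.00076 with a wider interval (−0.15 to 0.15), since it varied from 45.1 to 69.9 CPM among *Htt* +/+ mice.

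The 3 T-type subunits, which open near the resting potential and shape burst firing, were not called either. *Cacna1h* averaged 164 ± 13.5 CPM (SD, n = 17) and 164 ± 13.9 CPM (SD, n = 18), and *Cacna1i* 158 ± 11.4 CPM (SD, n = 17) and 160 ± 15.9 CPM (SD, n = 18). *Cacna1g* was lower in level, at 12.6 ± 1.18 CPM (SD, n = 17) and 13.4 ± 1.63 CPM (SD, n = 18). *Cacna1s*, the skeletal muscle pore subunit, was near the limit of the rule with 9 to 35 counts per mouse, and 19.98% of its exon length overlaps an antisense transcript. Skeletal muscle markers were scarce: of 4, *Ckm*, *Myh2* and *Tnnt3* did not pass the filter on low counts, and *Acta1* was at 3.05 ± 0.44 CPM (SD, n = 17) and 2.56 ± 0.35 CPM (SD, n = 18). Within the pore genes, *Cacna1e* made up 17.3% ± 1.49 (SD, n = 17) of the summed level per kb in *Htt* +/+ and 13.7% ± 1.07 (SD, n = 18) in *Htt* Q111/+ mice. In the same order, *Cacna1h* (24.9% and 25.9%) and *Cacna1i* (23.7% and 24.98%) made up more in both genotypes. *Cacna1a* (15.0% and 15.6%) made up more than *Cacna1e* in *Htt* Q111/+ mice only.

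The alpha2delta subunits, extracellular proteins that carry channels to the membrane and anchor them at synapses, split in direction: 1 of 4 was called lower, 2 higher and 1 neither. *Cacna2d3*, the most abundant of them per kb of exon, ran from 263 to 309 CPM (median 277) in *Htt* +/+ and from 215 to 255 CPM (median 235) in *Htt* Q111/+ mice. By treatment (saline, control ASO and *Htt* ASO in that order) the group medians were 269, 271 and 287 CPM in *Htt* +/+ mice and 228, 240 and 237 CPM in *Htt* Q111/+ mice. No *Htt* Q111/+ mouse reached the lowest *Htt* +/+ mouse, and the mean was 83.5% of the *Htt* +/+ level (95% confidence interval 80.9 to 86.2, log2 fold change −0.26, standard error 0.022, adjusted p = 1.89e-11). The decrease was called under all 3 treatments (−0.25, −0.23 and −0.30).

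*Cacna2d1*, the binding site of gabapentin, rose from 52.4 ± 5.40 CPM (SD, n = 17) to 59.7 ± 6.59 CPM (SD, n = 18), with a log2 fold change of 0.18 ± 0.051 (SE; adjusted p = 0.00386) and broad overlap between 48.1 and 61.1 CPM. *Cacna2d2*, which is most prominent in cerebellar Purkinje cells, rose from 124 ± 6.02 CPM (SD, n = 17) to 130 ± 4.94 CPM (SD, n = 18), with a log2 fold change of 0.06 (adjusted p = 0.0203) that had both signs among lanes (−0.013 to 0.10). It was not called with lane as a covariate, with lane 7 left out, or with GC slope and lane as covariates (adjusted p 0.0915 to 0.220). *Cacna2d4*, a retinal member, was at 4.27 ± 0.44 CPM (SD, n = 17) and 3.98 ± 0.41 CPM (SD, n = 18) and was not called. The share of *Cacna2d3* in the summed level of the 4 genes per kb was 61.4% ± 1.69 (SD, n = 17) in *Htt* +/+ and 55.6% ± 1.49 (SD, n = 18) in *Htt* Q111/+ mice, and that of *Cacna2d2* 29.7% ± 1.78 (SD, n = 17) and 33.7% ± 1.66 (SD, n = 18).

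The upstream sequences of *Cacna2d3*, which fell, and *Scn9a*, which rose, are shown because both genes had no overlap between genotypes and both RefSeq windows hold no annotated exon. Each run is the 250 bases before the RefSeq start on GRCm38.p6, on the minus strand, 5′ to 3′. Capitals mark GGGCGG on either strand, the core of the GC box bound by Sp-family factors.
Cacna2d3 (chr14:29721865-29722114): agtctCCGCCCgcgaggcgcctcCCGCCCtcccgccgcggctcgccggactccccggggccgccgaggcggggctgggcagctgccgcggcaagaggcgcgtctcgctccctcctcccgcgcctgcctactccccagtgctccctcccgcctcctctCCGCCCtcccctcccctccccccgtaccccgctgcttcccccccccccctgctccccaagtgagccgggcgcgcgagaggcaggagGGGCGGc
Scn9a (chr2:66634963-66635212): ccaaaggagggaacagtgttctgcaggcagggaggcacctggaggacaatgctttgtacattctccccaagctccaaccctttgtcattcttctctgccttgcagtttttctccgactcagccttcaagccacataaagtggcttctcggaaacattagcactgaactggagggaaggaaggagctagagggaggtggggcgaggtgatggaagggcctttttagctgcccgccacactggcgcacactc
The window of *Cacna2d3* is 80.0% G or C and holds 4 matches, and that of *Scn9a* is 54.4% G or C and holds 0. A RefSeq window was at hand for 25 of the 35 members. GGGCGG occurs in 56.0% of these 25 and in 35.4% of all 27025 genes with a window; it occurs in 5 of the 12 members called lower, 3 of the 5 called higher and 6 of the 8 not called. TATAAA on either strand occurs in 8% of the 25 and in 14.3% of all. The windows of the 25 were richer in G or C, with a median of 61.6% against 52.4% for all, and the part of this in the matches was not tested. Of the 25, 15 had a window free of annotated exons, so some of the counted windows hold transcribed sequence.

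The intracellular beta subunits of calcium channels, which bind the pore and release it from the endoplasmic reticulum, were all lower in the mean, and 3 of 4 were called. *Cacnb2* ran from 69.7 to 90.7 CPM (median 81.1) in *Htt* +/+ and from 56.2 to 72.1 CPM (median 63.8) in *Htt* Q111/+ mice. By treatment (saline, control ASO and *Htt* ASO in that order) the group medians were 80.9, 82.8 and 84.8 CPM in *Htt* +/+ mice and 64.6, 67.8 and 60.1 CPM in *Htt* Q111/+ mice. The ranges overlapped only between 69.7 and 72.1 CPM, and the log2 fold change was −0.35 ± 0.031 (SE; adjusted p = 3.09e-11), the largest decrease of this family. *Cacnb3* fell from 125 ± 12.3 CPM (SD, n = 17) to 105 ± 6.58 CPM (SD, n = 18), with a log2 fold change of −0.24 (adjusted p = 1.61e-06). *Cacnb1*, the main beta subunit of skeletal muscle, which brain also expresses, fell from 103 ± 8.27 CPM (SD, n = 17) to 88.1 ± 5.93 CPM (SD, n = 18), with a log2 fold change of −0.22 (adjusted p = 2.46e-06).

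*Cacnb4*, whose loss causes ataxia and seizures in the lethargic mouse, was the most abundant of the 4 per kb of merged exon, at 38.3 ± 2.39 CPM per kb (SD, n = 17) in *Htt* +/+ and 36.7 in *Htt* Q111/+ mice. Its log2 difference of −0.06 did not pass (unadjusted p = 0.0268, adjusted p = 0.0635), and 16.0% of its exon length overlaps a transcript on the other strand. *Cacnb1* and *Cacnb2* were called under each treatment and *Cacnb3* on saline and *Htt* ASO.

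Among the gamma genes, 4 of 7 were called lower, 2 higher and 1 neither. The genes of the TARPs stargazin (*Cacng2*), *Cacng3* and *Cacng4* fell by like amounts. *Cacng2* ran from 26.6 to 33.7 CPM (median 30.7) in *Htt* +/+ and from 22.7 to 30.1 CPM (median 25.1) in *Htt* Q111/+ mice, a log2 fold change of −0.29 ± 0.034 (SE; adjusted p = 1.38e-08). *Cacng3* fell from 52.7 ± 4.52 CPM (SD, n = 17) to 43.3 ± 3.23 CPM (SD, n = 18), a log2 fold change of −0.28 (adjusted p = 5.96e-07). *Cacng4* fell from 35.8 ± 3.11 CPM (SD, n = 17) to 29.6 ± 2.73 CPM (SD, n = 18), a log2 fold change of −0.27 (adjusted p = 2.53e-06). The ranges of the genotypes overlapped in part for all 3. *Cacng2* and *Cacng3* were called under each treatment, and *Cacng4* on saline and *Htt* ASO.

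Another pair of TARP genes rose. *Cacng7* ran from 31.3 to 40.5 CPM (median 36.0) in *Htt* +/+ and from 37.0 to 45.4 CPM (median 40.0) in *Htt* Q111/+ mice, a log2 fold change of 0.17 ± 0.032 (SE; adjusted p = 4.60e-05). *Cacng8*, a TARP gene best known from the hippocampus, rose from 17.2 ± 1.43 CPM (SD, n = 17) to 18.6 ± 1.23 CPM (SD, n = 18), a log2 fold change of 0.12 (adjusted p = 0.00589), which was not called with lane as a covariate (adjusted p = 0.0636) or with lane 7 left out (0.0849). These 2 genes lie side by side on chromosome 7 (chr7:3332955-3368221 and chr7:3390683-3415648, GRCm38), and *Cacng1*, *Cacng4* and *Cacng5* lie together on chromosome 11 (chr11:107703218-107915055). Along the second cluster *Cacng1* and *Cacng4* were called lower and *Cacng5* was not called (log2 difference 0.09, adjusted p = 0.134).

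*Cacng1*, the skeletal muscle gamma subunit and a true calcium channel partner, had the second largest decrease of all members on the log2 scale (−0.58, 95% confidence interval −0.81 to −0.35, adjusted p = 7.41e-05), on few counts. It had 23 to 74 counts per mouse and ran from 0.84 to 2.15 CPM (median 1.39) in *Htt* +/+ and from 0.70 to 1.37 CPM (median 0.91) in *Htt* Q111/+ mice, with wide overlap. Within lanes its log2 difference ran from −0.80 to −0.011. The muscle marker *Acta1* was also lower in *Htt* Q111/+ mice (log2 difference −0.25), and its part in this result was not tested. Over the 7 genes the summed level per kb was 60.8 ± 3.50 (SD, n = 17) and 56.8 ± 2.37 (SD, n = 18); *Cacng7* made up 24.2% ± 1.21 (SD, n = 17) of it in *Htt* +/+ and 29.1% ± 1.21 (SD, n = 18) in *Htt* Q111/+ mice, and *Cacng3* 31.2% ± 1.87 (SD, n = 17) and 27.4% ± 1.53 (SD, n = 18).

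Levels of the 35 genes in *Htt* +/+ mice spanned more than the difference between genotypes by far. Per kb of exon, *Scn4b* was highest, at 359 ± 26.5 CPM per kb (SD, n = 17), followed by *Scn2b* at 86.3 ± 3.34 (SD, n = 17). *Cacnb4*, *Scn3b*, *Cacna2d3* and *Cacnb3* lay between 31.2 and 38.3 CPM per kb, and each overlapped its neighbour in this order. By merged exons the most abundant pore genes were *Scn8a*, at 19.3 ± 1.26 CPM per kb (SD, n = 17), and then the T-type genes *Cacna1h* (16.8 ± 1.38; SD, n = 17) and *Cacna1i* (16.0 ± 1.16; SD, n = 17). *Scn9a*, *Cacna2d4*, *Scn7a* and *Cacna1s* were among the lowest, from 0.52 down to 0.10 CPM per kb. Of the 34 pairs of neighbours in this order, 29 had overlapping ranges over the 17 mice and 5 did not, among them *Scn4b* and *Scn2b*, *Cacnb3* and *Cacnb1*, *Cacna1c* and *Cacna1g*, and *Cacng1* and *Scn9a*. The order depends on the length used. Divided by the longest transcript instead of the merged exons, *Cacna2d3* moved from 32.3 to 76.1 and *Cacnb2* from 6.19 to 16.3 CPM per kb, while *Scn4b* stayed at 359. On that length *Cacnb3* (45.8) lay above *Cacnb4* (41.8), and *Cacna1i* (16.2) lay below *Cacna1e* (19.8), *Scn2a1* (19.0) and *Scn1a* (17.5).

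**Figure D3:**
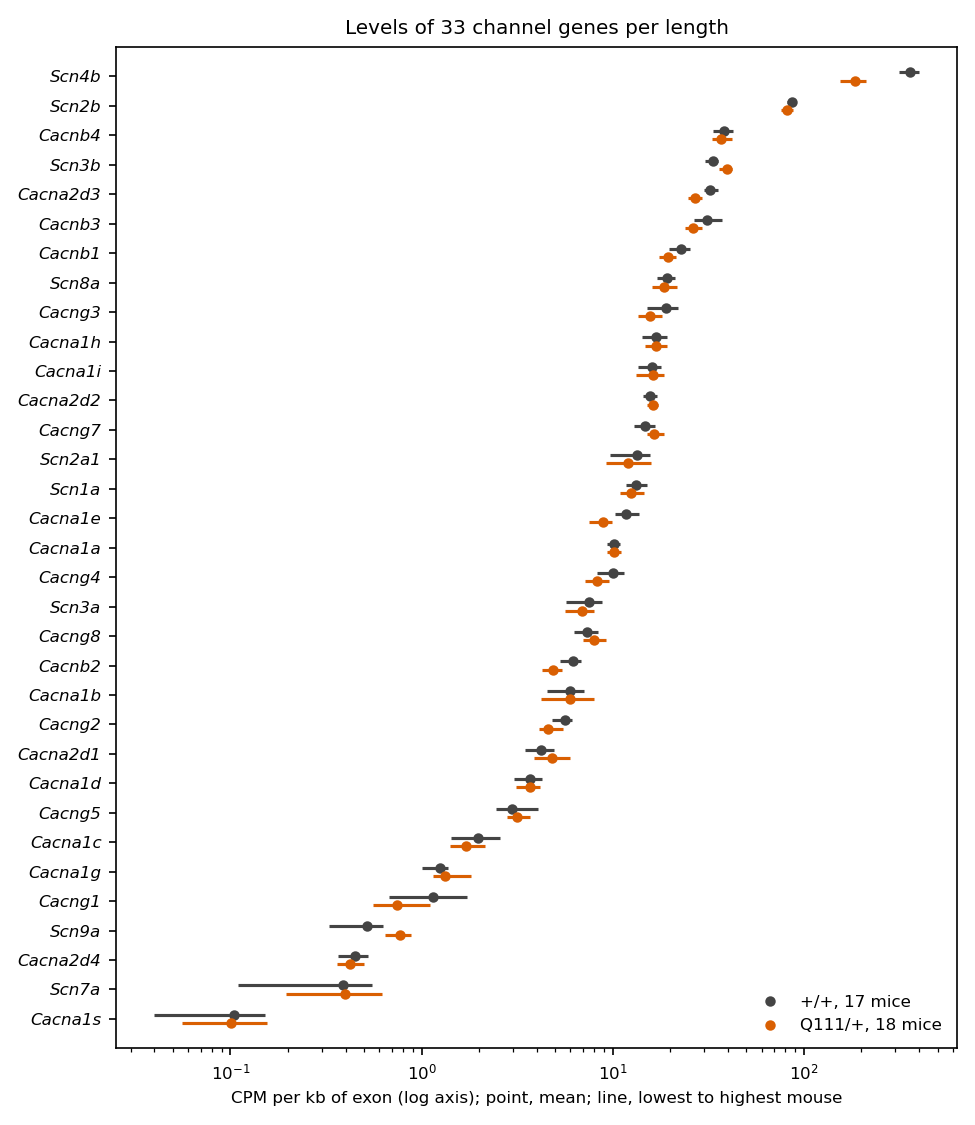
Level of 33 of the 35 channel genes per kb of merged exon, on a log axis, in 17 *Htt* +/+ and 18 *Htt* Q111/+ mice; points are means and lines reach from the lowest to the highest mouse. *Scn4b* stands apart at 359 CPM per kb in *Htt* +/+ and 185 CPM per kb in *Htt* Q111/+ mice, and *Cacna1s* is lowest at 0.10 CPM per kb in both.

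The genotype difference was present under each treatment. On saline 14 of the 35 members were called (3 higher and 11 lower), where 17.4% of all genes tested were called. On control ASO 11 were called (4 higher and 7 lower), beside 18.5% of all genes tested, and on *Htt* ASO 13 (3 higher and 10 lower), beside 21.2%. Called under all 3 treatments were 9 members, namely *Scn4b*, *Scn3b*, *Scn9a*, *Cacna1e*, *Cacna2d3*, *Cacnb1*, *Cacnb2*, *Cacng2* and *Cacng3*. Another 4 were called under 2 treatments (*Cacnb3*, *Cacng1*, *Cacng4* and *Cacng7*), 3 under 1 (*Cacna2d1* and *Cacng8* among them), and 6 only when the treatments were averaged (*Scn1a*, *Scn2a1*, *Scn2b*, *Scn3a*, *Cacna1c* and *Cacna2d2*). The matching shares of all genes tested were not computed, so whether these counts are unusual cannot be said. The sign was the same under all 3 treatments for 21 of the 22 called members. Those members were called on the average of the same 3 differences, so a shared sign was likely from the start and adds no support.

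*Cacnb3* was called on saline (log2 difference −0.37, adjusted p = 4.24e-05) and on *Htt* ASO (−0.22, adjusted p = 0.00904), but not on control ASO (−0.14, adjusted p = 0.133). Beside this stood a trait of the libraries: the slope of a mouse's log2 CPM on transcript GC content averaged 0.053 ± 0.062 (SD, n = 6) per 10% GC in *Htt* +/+ mice on saline and −0.037 ± 0.054 (SD, n = 5) in *Htt* +/+ mice on control ASO, and *Cacnb3* is a GC-rich transcript (61.3% GC). With that slope as a covariate, an analysis chosen after seeing the data, *Cacnb3* was called under all 3 treatments (−0.27, −0.18 and −0.25 for saline, control ASO and *Htt* ASO). Over the 35 members, that fit called 13 on saline (14 without the slope), 15 on control ASO (11) and 18 on *Htt* ASO (13). The part of the GC slope in these differences was not tested. No test of genotype by treatment passed for any member, as given next.

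**Figure D4:**
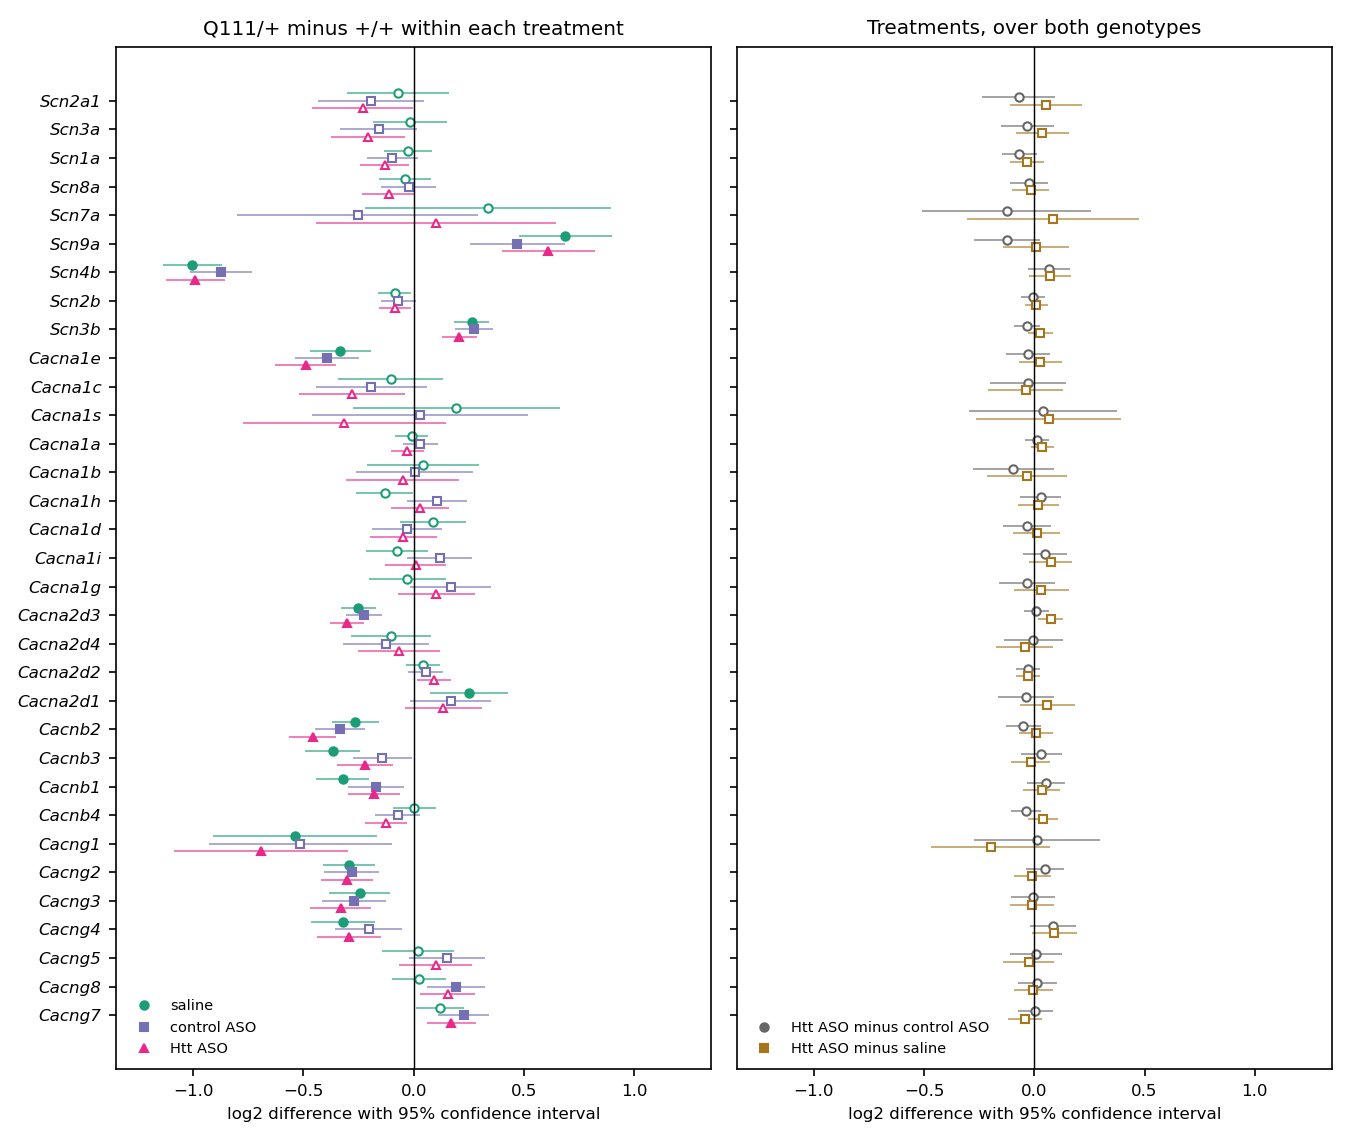
Left, log2 difference between genotypes within saline, control ASO and *Htt* ASO for 33 of the 35 channel genes; right, log2 difference of *Htt* ASO from control ASO and from saline over both genotypes. Lines are 95% confidence intervals and filled symbols have an adjusted p under 0.05. *Scn4b* is filled at −1.005, −0.87 and −0.99 on the left, and no symbol on the right is filled.

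The study asked whether *Htt* ASO, given outside the brain, changes the striatum of these mice. No channel gene passed for *Htt* ASO against control ASO over both genotypes, by limma after voom, edgeR or DESeq2, and 0 of the 35 had an unadjusted p under 0.05; 0.935% of all genes tested were called. The smallest unadjusted p belonged to *Scn1a*, with a log2 difference of −0.07 (95% confidence interval −0.15 to 0.012, unadjusted p = 0.0952, adjusted p = 0.886). For *Scn4b* the difference was 0.07 (−0.030 to 0.16), which is small beside its genotype difference of −0.96. The 35 log2 differences ran from −0.13 to 0.09.

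Against saline, *Htt* ASO again gave 0 calls by all 3 tools (1.47% of all genes tested were called by limma after voom), with 1 member at an unadjusted p under 0.05. That member was *Cacna2d3*, with a log2 difference of 0.07 (95% confidence interval 0.018 to 0.13, unadjusted p = 0.0104, adjusted p = 0.288). Control ASO against saline gave 0 calls among the members and 0 among all genes tested (0%), with 3 members at an unadjusted p under 0.05, and *Cacna2d3* was again the smallest (log2 difference 0.06, unadjusted p = 0.0281, adjusted p = 0.607). The comparisons with saline share those mice, so the 2 values are not independent. The direction in *Cacna2d3* was away from the level of *Htt* Q111/+ mice, and it did not survive adjustment.

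Within *Htt* Q111/+ mice, *Htt* ASO against control ASO gave 0 calls among the members by all 3 tools, with 1 at an unadjusted p under 0.05, where 0.357% of all genes tested were called. That was *Cacnb2*, with a log2 difference of −0.11 (95% confidence interval −0.22 to −0.0021, unadjusted p = 0.0460, adjusted p = 0.759). *Scn4b* differed by 0.0076 (−0.13 to 0.14) in the same comparison, from 935 ± 88.0 CPM (SD, n = 6) on control ASO to 940 ± 83.5 CPM (SD, n = 6) on *Htt* ASO. Whether the genotype difference itself changed between control ASO and *Htt* ASO (the interaction) was called for 0 members and for 0% of all genes tested, with 0 members at an unadjusted p under 0.05. An F test of the interaction over the 3 treatments also called 0 members and 0% of all genes tested; 2 members had an unadjusted p under 0.05, the smaller that of *Cacna1h* (unadjusted p = 0.0428, adjusted p = 0.876). The 95% confidence interval of a member's treatment difference over both genotypes reached a median of 0.10 to either side on the log2 scale.

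Among partners of the channels, calls were read beside the 39.8% of all genes tested that were called (21.8% higher and 18.0% lower). Of 10 sodium channel partners, which anchor or tune sodium channels, 2 were called higher, 3 lower and 5 neither, with a median log2 difference of −0.04 beside 0.0037 for all genes tested. *Fgf14*, an intracellular modulator of the pore, fell (log2 fold change −0.26), as did *Nedd4l*, a ubiquitin ligase that removes channels from the membrane (−0.19), and *Ank3*, the ankyrin that holds sodium channels at the axon initial segment (−0.09). *Fgf12* (0.06) and the adhesion molecule *Cntn1* (0.08) rose.

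Of 11 calcium channel regulators, 2 were called higher, 2 lower and 7 neither (median 0.02). The active-zone genes *Rims2* (0.12) and *Rimbp2* (0.20), whose products tether calcium channels at release sites, rose, while *Rem2*, a small GTPase that restrains calcium channels (−0.17), and *Cabp1*, a calcium-binding modulator (−0.18), fell. In the complex of the sodium leak channel NALCN, 3 genes were measured and 1 was called lower (*Unc79*, log2 fold change −0.10), with *Nalcn* itself at 0.04 and not called.

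Other cell types were read beside these results, with 18.0% of all genes tested called lower and 21.8% called higher. Among 7 striatal interneuron markers, 2 were called lower and 0 higher (summed level 231 to 268 CPM in *Htt* +/+ and 213 to 249 CPM in *Htt* Q111/+ mice). Astrocyte markers had 2 of 5 called lower (summed level 833 to 947 and 807 to 907 CPM), oligodendrocyte lineage markers 3 of 7 (8912 to 11904 and 8511 to 10367 CPM), microglial markers 3 of 5 (268 to 314 and 242 to 288 CPM) and endothelial markers 3 of 4 (151 to 259 and 139 to 182 CPM), with 0 called higher in each. Of 5 cortical excitatory neuron markers 0 were called, but their summed level varied widely among mice, from 7.52 to 70.3 CPM in *Htt* +/+ and from 6.62 to 72.3 CPM in *Htt* Q111/+ mice. Their part in the channel results was not tested. No marker was at 0 in every mouse.

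Channel genes also moved together from mouse to mouse once the 6 group means were removed. Over 35 mice, *Scn2a1* was most like *Cacna2d1* (Pearson r = 0.93) and *Cacna1b* (r = 0.92), and *Cacna1h* was most like *Cacna1i* (r = 0.87). *Scn4b* was most like *Cacng4* (r = 0.64) and *Cacna1h* (r = 0.62), *Cacna1e* most like *Scn2a1* (r = 0.87), *Cacnb2* most like *Scn2b* (r = 0.68), and *Scn3b* and *Cacna2d3* most like each other (r = 0.69). *Scn9a* was most like *Cacna1g* (r = 0.57) and *Cacng1* most like *Scn4b* (r = 0.51). These values share libraries.

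Across the 35 members, GC content and a member's correlation with the GC slope of the libraries were related with r = 0.86; members are not independent, and the slope was computed from all other genes. The slope averaged 0.0045 ± 0.071 (SD, n = 17) per 10% GC in *Htt* +/+ and −0.0043 ± 0.052 (SD, n = 18) in *Htt* Q111/+ mice. With the slope as a covariate, 23 members (65.7%) and 44.2% of all genes tested were called between genotypes. Its part in the results was not tested.

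**Figure D5:**
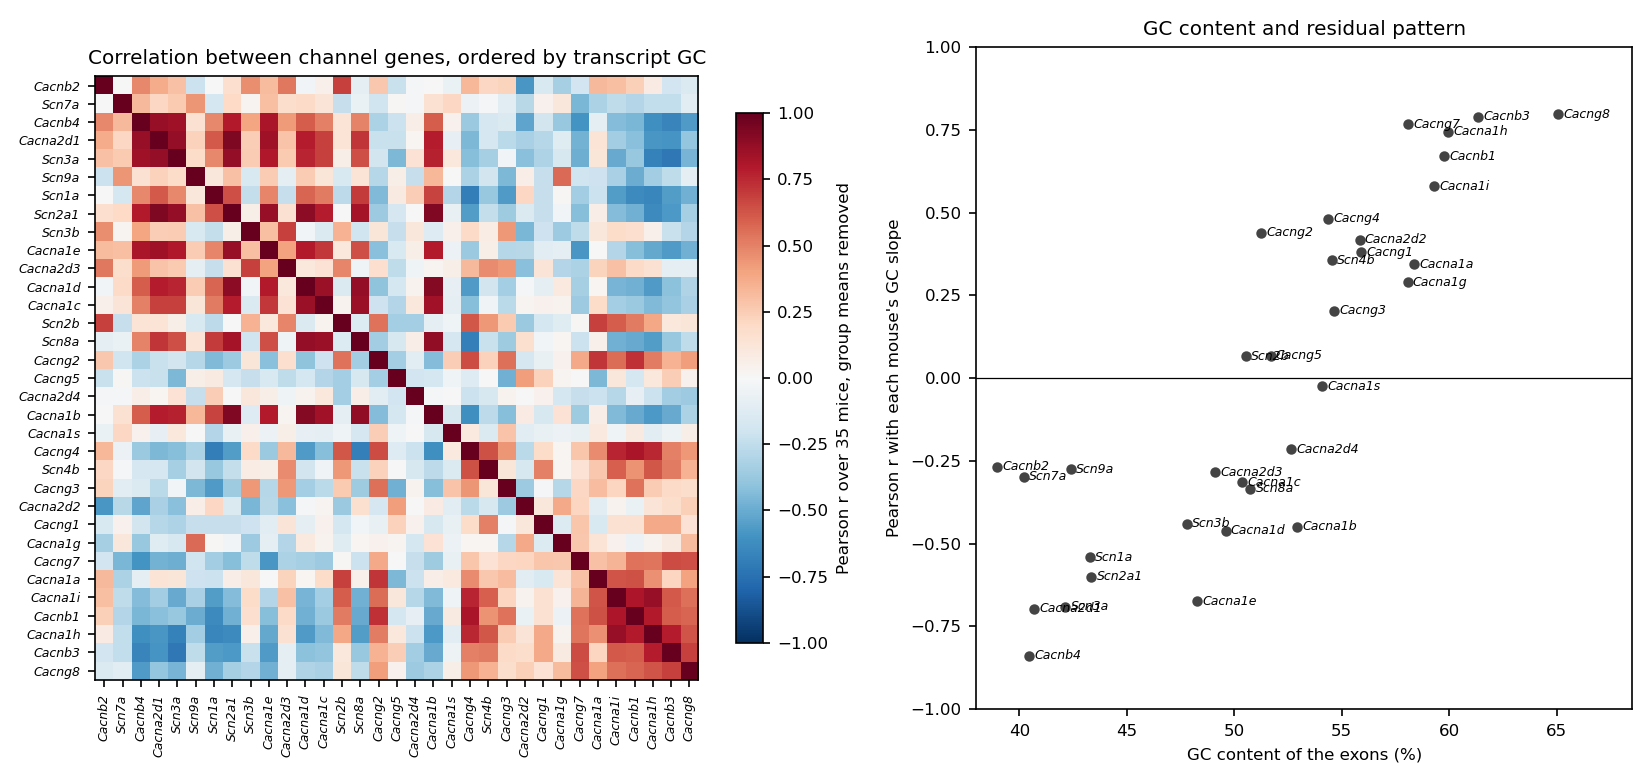
Left, Pearson correlation between 33 of the 35 channel genes over 35 mice after removing the 6 group means. Genes are ordered by the GC content of their longest annotated transcript (the axis label says exons). Right, that GC content against each gene's correlation with the GC slope of the libraries, in log2 CPM per 10% GC. Several genes of low GC content, such as *Scn2a1* and *Cacna2d1*, correlate with each other while others, such as *Cacnb2* and *Scn7a*, do so weakly or not, and the right panel rises from *Cacnb4* at −0.84 to *Cacng8* at 0.80.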

How the data were processed

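The experiment measured striatal RNA of 35 mice in 6 groups. The authors had stranded mRNA libraries sequenced, aligned the reads to the mouse transcriptome with Bowtie 0.12.9 (build mm9) and estimated gene counts with RSEM 1.1.18, per the submitters' processing notes; they deposited RSEM's expected counts, not scaled for library size, of which 55.6% were whole numbers. The strand setting of the counting is not given in the sources used here. The treatment named ASO1 in the labels was taken as *Htt* ASO. Replicate numbers follow accession order and pair no samples.

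The analysis used limma 3.58.1, edgeR 4.0.16 and R 4.3.3. Of 22099 genes, 17639 were kept by filterByExpr (minimum count 10, minimum total 15), TMM scaled the library sizes, and limma was run after voom on 6 group means with moderated variances (29 residual and 4.30 prior degrees of freedom), with Benjamini-Hochberg adjustment over all genes tested and a threshold of 0.05. CPM are on TMM-scaled library sizes; log2 CPM for correlations used a prior count of 2. Genotype was compared over treatments and within each, treatments over genotypes and in *Htt* Q111/+ mice, and the interaction was tested. In each of 85 pairs of mice from 1 group the counts differed by more than sampling noise (chi-square over its degrees of freedom, 3.57 to 16.5). Values in every group were computed, and are given as ranges or as mean ± SD by genotype, for the called members with the largest fold, up to 8 each way, and for *Scn1a*, *Scn2a1*, *Scn8a*, *Scn4b*, *Cacna1a*, *Cacna1b*, *Cacna1c*, *Cacna1d* and *Cacna2d1*; in treatment comparisons, for the member of smallest unadjusted p. The other members, *Htt* and partner genes were added by their role. Some members are counted in the totals over the 35 but not reported singly here. The members and all gene lists were chosen with earlier results of these data known.

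GENCODE M21 (GRCm38, not the authors' build) gave positions, exon lengths and GC content (of a gene's longest transcript), matched by symbol. GC content was known for 83.5% of genes tested. As alternatives, counts rounded to whole numbers were tested by edgeR (quasi-likelihood) and DESeq2 1.42.0, and limma was rerun with library totals, no filter, a mean of at least 1 CPM, lane as a covariate, no mice of lane 7, sample quality weights, only the groups compared, and leaving out each mouse or the left hemistriatum mouse. Fits with the GC slope, alone and with lane, were added after seeing the data. The code was tested on simulated data. Tables were built in Python 3.11.15.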

Additional observations from a re-analysis of the deposited data

Results flagged for a closer look

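In 126 checks of a group's most extreme mouse, over the 21 channel genes with group values and the 6 groups, 2 mice stood apart from the rest of their group by Dixon's criterion at the 95% level; chance flags about 1 group in 20. *Scn1a* was 130 CPM in 1 *Htt* +/+ mouse on saline, with the next lowest of its group at 146 CPM. *Scn9a* was 11.3 CPM in 1 *Htt* Q111/+ mouse on *Htt* ASO, with the next highest of its group at 9.59 CPM. Neither mouse decided a call: *Scn1a* and *Scn9a* each remained on the same side of the threshold when that mouse was left out.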

How the results depend on the processing

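The calls of the channel genes between genotypes held under most alternatives. Leaving out 1 mouse at a time gave 19 to 24 called over treatments (6 to 7 higher and 13 to 17 lower), 11 to 15 on saline, 9 to 12 on control ASO and 11 to 18 on *Htt* ASO, and 0 in the 3 treatment comparisons over genotypes, in *Htt* ASO against control ASO in *Htt* Q111/+ mice, and in both interaction tests of the report. Lower calls numbered 10 with library totals in place of TMM, against 16. Calls on *Htt* ASO numbered 20 with GC slope and lane as covariates and 18 without the left hemistriatum mouse, against 13. The calls of 26 genes were followed singly, for genotype averaged over treatments. For these, edgeR, DESeq2, the 1 CPM filter, sample quality weights, the GC slope alone and leaving out the left hemistriatum mouse changed no call. With GC slope and lane together, *Cacna1d* turned from 0.0038 to −0.092 on the log2 scale (adjusted p = 0.0363), *Cacna1b* (−0.20) and *Scn8a* (−0.15) became called lower, and *Cacna2d2* and *Scn2b* lost their calls; the cause was not tested. *Cacna1c*, *Scn1a*, *Scn2a1*, *Scn2b* and *Scn3a* were among the 6 that lost their calls with library totals, *Scn2a1* with no filter, *Cacna2d2*, *Cacng8*, *Scn1a*, *Scn2a1* and *Scn3a* with lane as a covariate, and the same 5 with *Cacna1c* without lane 7. *Scn1a* depended on each of 5 single mice (adjusted p 0.0526 to 0.0629) and *Scn3a* on each of 6 (0.0508 to 0.0579). No paired analysis was possible because the labels give no replicate numbers. Depth limits *Cacng1*, *Cacna1s* and *Scn7a*, the members with the fewest counts.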
